A study of Mus musculus with 16 samples.

Results

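The trimethylation of histone H3 at lysine 27 (H3K27me3) was compared between quiescent (QSC) and activated (ASC) muscle stem cells. The 8 samples of this comparison, of 16 in all, were chosen by their titles: 2 H3K27me3 immunoprecipitations and 2 inputs for each state. All came from skeletal muscle of C57BL/6 mice, and no genetic change, drug or other treatment is given for either group. The other 8 samples carried the mark H3K4me3 in the same states and served only to describe genes here. The labels used here do not state the age of the animals, how cells were isolated or activated, or whether replicates came from separate animals. Chromatin was immunoprecipitated and the bound DNA was cut and tagged by a transposase before paired-end sequencing. Each state has a single narrow and a single broad peak list for H3K27me3, named for both of its replicates. There is therefore no replicate check on any difference between the states, no test is possible, and every value below describes these 4 lists. Read depth per sample is unknown from the files used.

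H3K27me3 is written by the methyltransferase EZH2 (or EZH1) in Polycomb repressive complex 2 and is read by the CBX proteins of canonical Polycomb repressive complex 1. It covers silent developmental regulators, often at CG-rich promoters, and can spread over long domains. Muscle stem cells rest in quiescence beneath the basal lamina and enter the cell cycle when muscle is injured.

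The states shared most H3K27me3 genes, and the ASC list covered more gene starts than the QSC list. A protein-coding gene was called when 500 bp or more of the window reaching 1 kb to either side of its start lay under broad peaks. By this rule the QSC list called 5488 of 21887 genes (25.1%) and the ASC list 6655 (30.4%). Both lists called 4920 genes, which is 89.7% of the QSC genes. The ASC list alone called 1735 genes (7.93%) and the QSC list alone 568 (2.60%).

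The promoters of genes that stood at the extremes of the comparison are shown first. They are the RefSeq promoters of GRCm38.p6 (250 bases before to 50 after the start, on the gene's strand, coordinates equal to mm10), in lower case with every CG dinucleotide in capitals, because CG density is the sequence feature with which Polycomb targets are commonly described. CG, which reads the same on both strands, occurs in 94.6% of the 32851 promoters of that table, with a median of 7 per promoter. That table is not limited to coding genes. Over the 17492 coding genes with a promoter sequence the median was 13. Col15a1 (chr4:47207762-47208061, plus strand, 8 CG) and Crispld2 (chr8:119992188-119992487, plus strand, 20 CG) had the highest fold of the 42 genes with established symbols that were called in ASC only, with an ASC narrow peak at the start and no QSC base within 5 kb. Vasn (chr16:4639695-4639994, plus strand, 7 CG) had the higher fold of the 2 genes that met the same rule in QSC. Skor1 (chr9:63148912-63149211, minus strand, 46 CG) and Hand2 (chr8:57320733-57321032, plus strand, 17 CG) were covered across the whole window in both states. Skor1 and Hand2 were chosen for display after their values were seen. The transcript start used in the Col15a1 entry lies 357 bp inside the gene record.
Col15a1: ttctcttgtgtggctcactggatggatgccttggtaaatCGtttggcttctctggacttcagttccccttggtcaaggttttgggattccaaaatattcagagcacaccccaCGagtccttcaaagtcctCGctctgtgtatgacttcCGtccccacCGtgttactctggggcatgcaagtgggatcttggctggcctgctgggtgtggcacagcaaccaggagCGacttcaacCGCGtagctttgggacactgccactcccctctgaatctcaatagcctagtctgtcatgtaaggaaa
Crispld2: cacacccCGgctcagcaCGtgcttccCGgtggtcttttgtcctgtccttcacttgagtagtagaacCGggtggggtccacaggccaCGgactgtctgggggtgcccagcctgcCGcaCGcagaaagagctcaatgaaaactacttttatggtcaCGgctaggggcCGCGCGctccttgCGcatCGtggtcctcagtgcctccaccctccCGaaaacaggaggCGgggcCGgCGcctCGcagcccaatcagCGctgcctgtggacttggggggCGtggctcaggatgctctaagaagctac
Vasn: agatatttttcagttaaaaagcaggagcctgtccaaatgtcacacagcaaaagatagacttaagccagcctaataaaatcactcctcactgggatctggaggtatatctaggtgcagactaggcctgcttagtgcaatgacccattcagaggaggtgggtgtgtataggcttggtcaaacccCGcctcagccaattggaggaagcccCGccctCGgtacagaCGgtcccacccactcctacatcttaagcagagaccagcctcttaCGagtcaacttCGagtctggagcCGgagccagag
Skor1: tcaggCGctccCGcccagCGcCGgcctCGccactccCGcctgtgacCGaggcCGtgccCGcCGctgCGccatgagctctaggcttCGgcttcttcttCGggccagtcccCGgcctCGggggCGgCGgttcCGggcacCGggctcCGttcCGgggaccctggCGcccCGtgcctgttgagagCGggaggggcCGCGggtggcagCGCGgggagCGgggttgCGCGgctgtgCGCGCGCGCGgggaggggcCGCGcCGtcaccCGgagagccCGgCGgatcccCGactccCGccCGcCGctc
Hand2: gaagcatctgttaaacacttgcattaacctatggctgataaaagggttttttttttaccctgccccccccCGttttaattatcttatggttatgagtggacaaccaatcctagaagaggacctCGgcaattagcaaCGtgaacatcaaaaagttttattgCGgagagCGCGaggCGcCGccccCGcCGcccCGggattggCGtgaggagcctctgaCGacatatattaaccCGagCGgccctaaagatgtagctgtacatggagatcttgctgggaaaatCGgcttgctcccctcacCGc

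The peak lists themselves differ in ways that bear on every count. The QSC broad list held 130668 peaks over 455 Mb with a median length of 1571 bp. The ASC broad list held fewer peaks, 95819, over more sequence, 517 Mb, with a median length of 2793 bp. Peaks of 10 kb or more held 41.5% of the QSC bases and 50.5% of the ASC bases. The fold enrichment over background, the authors' own value for each peak, had a median of 1.90 for QSC peaks and 1.72 for ASC peaks, so most broad peaks were weak. Only 3.85% of QSC and 8.51% of ASC broad peaks had a q of at most 0.05. The narrow lists were stricter, with 44019 peaks over 53.8 Mb in QSC and 58454 peaks over 88.4 Mb in ASC, and median folds of 4.36 and 3.88. Folds are set against each list's own background, so they rank peaks within a list and give no change between lists.

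**Figure D1:**
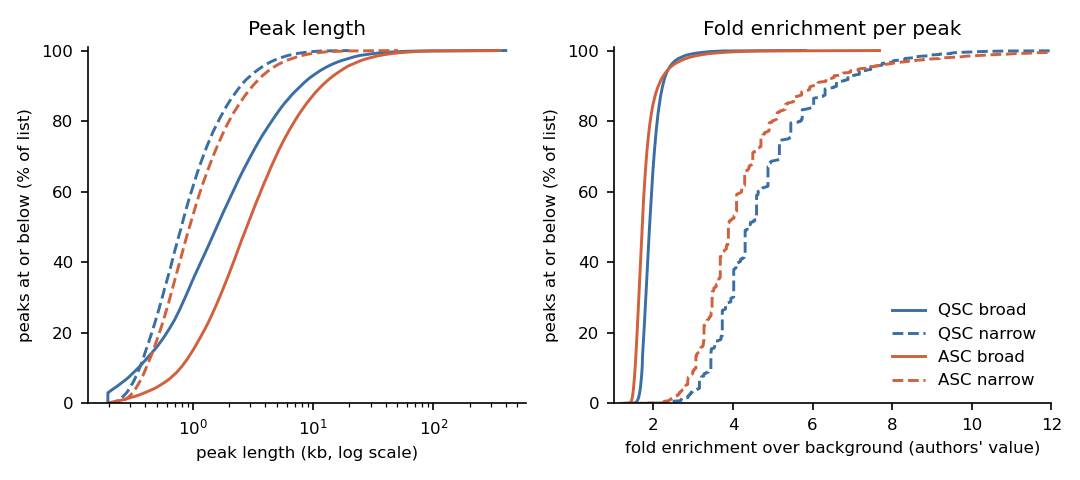
Cumulative share of peaks (percent of the list, vertical axes) by peak length in kb on a log scale (left) and by the authors' fold enrichment (right), for the broad (solid) and narrow (dashed) H3K27me3 lists of QSC (blue) and ASC (red). The ASC curves for length lie to the right of the QSC curves above 1 kb, with broad medians of 2793 and 1571 bp, and the ASC curves for fold start to the left, with broad medians of 1.72 and 1.90.

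Most broad peaks with a high fold overlapped the other state's broad list, while narrow peaks overlapped less. Of the bases under QSC broad peaks, 73.5% lay under ASC broad peaks, and 64.8% of the ASC bases lay under QSC peaks. The shared bases came to 335 Mb, with 121 Mb under QSC peaks only and 182 Mb under ASC peaks only. Of the 1161 QSC broad peaks with a fold of at least 3, 1155 shared at least 1 bp with the ASC broad list, and so did 9107 of the 9160 peaks of 10 kb or more. Over all broad peaks the shares were 61.0% of the QSC list and 65.5% of the ASC list. Among narrow peaks, 65.3% of the QSC list and 39.6% of the ASC list overlapped the other state's narrow list, and 41.3% of the ASC narrow peaks with a fold of at least 3 did. Against the other state's broad list, these shares were 97.2% and 94.5%, so few narrow peaks of either state lay outside the permissive list of the other.

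The same gradient was seen at genes. When the genes called in QSC were cut into 5 equal groups by the fold of their peak, 72.2% of the lowest group and 97.6% of the highest were also called in ASC. For the genes called in ASC the shares called in QSC were 44.3% and 92.6%. Of the 100 genes with the highest fold in each list, 49 were the same genes, and of the top 1000, 711 were. Genes near the call threshold were few, with 211 genes less than 100 bp below it and 209 less than 100 bp above it in QSC, and 219 and 217 in ASC. Cbx8, which encodes a CBX reader of the mark, shows the edge: 507 bp of its window were covered in QSC and 486 bp in ASC, so it was called in QSC only although its peak ranked at the 99.96 percentile of fold among QSC peaks and the 99.98 among ASC peaks.

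Genes that both lists shared lay in wide covered regions, whereas single-state calls were local. Averaged over 3576 shared genes with a known strand, broad peaks covered 83.8% of bases just upstream of the start in QSC and 91.8% in ASC, and still 55.4% and 60.6% at 9.88 kb upstream. At the 1379 ASC-only genes with strand, 1.07% of bases just upstream of the start were covered in QSC and 63.5% in ASC, while at 9.88 kb upstream QSC peaks covered 33.0% and ASC peaks 44.8%. The choice of these genes fixes the contrast at the start itself. At the 420 QSC-only genes the flanks were covered over 36.9% in QSC and 35.9% in ASC at 9.88 kb upstream, and over 45.5% and 38.8% at 4.88 kb upstream. Of the 1735 ASC-only genes, 1178 had no QSC base in the window and 421 had none within 5 kb. Of the 568 QSC-only genes, 405 had no ASC base in the window and 147 had none within 5 kb.

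**Figure D2:**
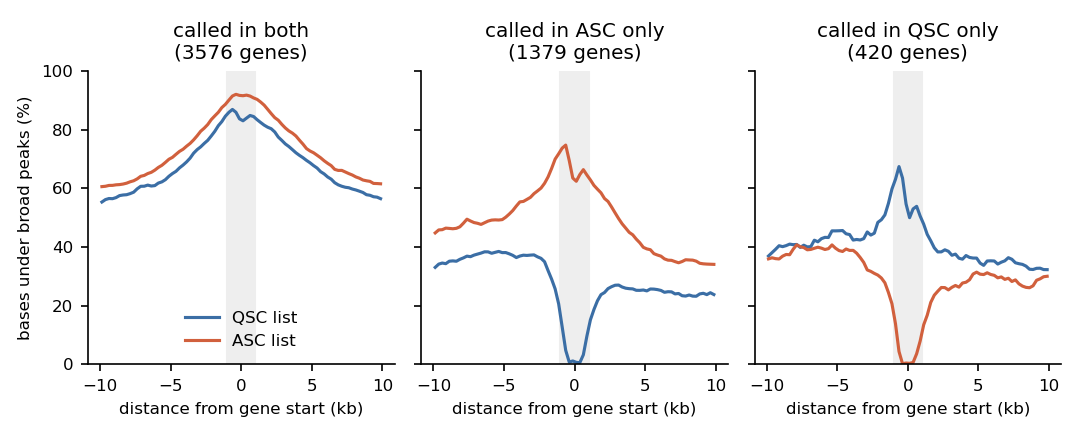
Share of bases under H3K27me3 broad peaks (percent, vertical axis) in bins along 10 kb either side of the gene start (horizontal axis, kb, negative is upstream), for genes with a known strand that were called in both lists, in ASC only and in QSC only. Grey marks the window used for the call, so the dip of the other state's line inside it follows from the choice of genes. Flanks remain covered in both states, at 33.0% (QSC) and 44.8% (ASC) at the upstream edge for the ASC-only genes.

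Few QSC-only calls had a narrow peak. The median ASC-only gene had a peak of 4966 bp at the 75.8 percentile of fold in the ASC list (100 is the highest), and the median QSC-only gene had a peak of 2529.5 bp at the 56.3 percentile of the QSC list. A narrow peak of the same state lay in the window at 346 ASC-only genes (19.9%) and at 20 QSC-only genes (3.52%). Over all coding genes, 10.4% had an H3K27me3 narrow peak at the start in QSC and 16.4% in ASC. Requiring such a narrow peak and no broad base of the other state within 5 kb left 42 ASC-only and 2 QSC-only genes with established symbols.

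Col15a1, which encodes a collagen of the basement membrane zone, led the ASC-only genes. Its ASC peak was 78661 bp long with a fold of 3.93, at the 99.6 percentile of the ASC list, and covered all 10000 bp within 5 kb of the start. In QSC no base within 5 kb of the start was covered. The gene record was covered over 0% in QSC and 80.7% in ASC. Crispld2, a secreted cysteine-rich protein, had an ASC peak of 11859 bp with a fold of 3.60, and 92.5% of its record was covered in ASC against 1.89% in QSC. Tnxb (tenascin X, a matrix glycoprotein) had a fold of 3.57 and 71.3% of its record covered in ASC, with 0% in QSC. The bone morphogenetic protein gene Bmp4 had a short ASC peak of 1905 bp with a fold of 2.89. Chrdl2, a chordin-like antagonist of such proteins, had 6781 bp covered within 5 kb at a fold of 2.69. Also in this set were the contractile and muscle genes Myh2 (a fast myosin heavy chain, fold 2.81, peak of 19961 bp) and Stac3 (a protein of excitation-contraction coupling, fold 2.68, 2907 bp). The set was completed by Actl10 (fold 3.12), Ppl (periplakin, 3.06), Pmp22 (a myelin protein, 2.96), Tmem51 (2.69) and Htra3 (a secreted serine protease, 2.62). The strand of Ppl, Chrdl2 and Stac3 is unknown, so the covered end may not be the start, and their H3K4me3 peak may lie at either end. The ASC peak at Stac3 lay beyond the end of its record, of which 0% was covered. With this limit, all 12 except Myh2 had an H3K4me3 narrow peak at the start in QSC. In ASC, H3K4me3 was listed at 9 of the 12, with none at Crispld2, Myh2 and Stac3.

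In the opposite direction Vasn, a membrane protein that binds transforming growth factor beta, had a QSC peak of 13013 bp with a fold of 3.08 (99.2 percentile) and no ASC base within 5 kb of the start. Its record was covered over 86.2% in QSC and 31.2% in ASC. An H3K4me3 narrow peak lay at its start in ASC and not in QSC. Prss56, a serine protease gene, was the other QSC-only gene, with a QSC peak of 1123 bp at a fold of 2.14, no H3K4me3 in either state, and no call when only peaks with a q of at most 0.05 were used.

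Developmental transcription factors were common among the genes with the highest fold in both lists. Classes of genes were defined by symbol and family, and developmental transcription factors made up 1.31% of coding genes (287). They made up 49 of the 100 genes with the highest fold in QSC and 45 of those in ASC, and 150 of the top 500 in each list. Scrt1, a neural zinc finger repressor, was in the top 10 of both lists, with a fold of 4.94 in QSC and 6.20 in ASC. The QSC top 10 also included Zfp518a (5.41), the cardiac and limb regulator Hand2 (4.64), the sulfatase gene Sulf2 (4.61), Ccdc106 (4.58), Tbx20 (a cardiac T-box factor, 4.54), Sox17 (an endoderm and endothelial regulator, 4.47), Arid3c (4.46) and Foxc2 (4.41). The ASC top 10 held Samd11 (7.68), the corepressor gene Skor1 (7.05), the pituitary and motor neuron regulator Lhx3 (6.47), the neighbours Dqx1, Pcgf1 and Tlx2 under the same peak (6.40), Tspoap1 (6.22), the forebrain regulator Dlx1 (6.05) and the potassium channel gene Kcna7 (6.04). All of these genes were called in both states. Tspoap1 and Pcgf1, whose strand is unknown, were read at opposite ends of their records in QSC and ASC. The QSC place of Tspoap1 (95.2 percentile of fold) therefore belongs to another end than its ASC fold. At the end read in ASC, QSC peaks with a fold of at least 3 covered 1940 bp of the window. Among the others named here, Tbx20 had the lowest place in the other list, at the 98.9 percentile of the ASC list.

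Homeobox genes outside the Hox clusters were called at 102 of 109 in QSC and at 102 in ASC, with Lbx1 and Six2 in ASC only and Six4 and En1 in QSC only. Their gene records were covered in full at the median in both states. Pax genes were called at 8 of 9 in each state, the exception being Pax7, which had no base covered within 5 kb in either. Wnt ligand genes were called at 17 of 19 in each state and keratin genes at 47 of 49. With narrow lists these were 12 and 15 Wnt ligand genes and 21 and 31 keratin genes. T-box genes had 14 and 15 of 17, neural and mesodermal bHLH genes 33 and 34 of 43, forkhead genes 27 and 26 of 44 (23 and 25 with narrow lists), and Gata genes 5 and 6 of 6, the addition in ASC being Gata1. H3K4me3 lay at the start of 33 of the 109 homeobox genes in QSC and 54 in ASC, and over all developmental factors at 110 and 142 of 287. Over all coding genes H3K4me3 was at 52.1% and 54.8%. Both marks at a start in a cell population do not show that both lay on the same allele or in the same cell.

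The 4 Hox clusters, which pattern the body axis, fell into separate kinds that were alike in both states. Hoxb, on chromosome 11, and Hoxd, on chromosome 2, were covered over 100% of the cluster in QSC and in ASC, with all 10 and all 9 genes called. Hoxa, on chromosome 6, was covered over 45.3% in QSC and 50.6% in ASC, and Hoxc, on chromosome 15, over 22.6% and 26.4%. The Hoxa genes without a call in QSC were Hoxa3, Hoxa4, Hoxa5, Hoxa6 and Hoxa9, and Hoxa4 was called in ASC. In Hoxc, 2 of 9 genes had a call in QSC and 3 had it in ASC, the difference being Hoxc5. Of the uncalled genes, 5 of 5 in Hoxa and 6 of 7 in Hoxc had H3K4me3 at the start in QSC, and 4 of 4 and 5 of 6 in ASC. With the ASC list cut to the covered bases of QSC, Hox calls were 27 in QSC and 26 in ASC, so the difference in Hox calls did not hold its direction.

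Housekeeping families were at the other end of the range. Cytosolic ribosomal protein genes were called at 4 of 81 in QSC and 5 in ASC, respiratory chain and ATP synthase genes at 3 and 4 of 90 (1 and 0 with narrow lists), proteasome genes at 1 and 3 of 43, and replication-dependent histone genes at 0 of 63 in both. Of 20 ubiquitously expressed reference genes none was called in either state.

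**Figure D3:**
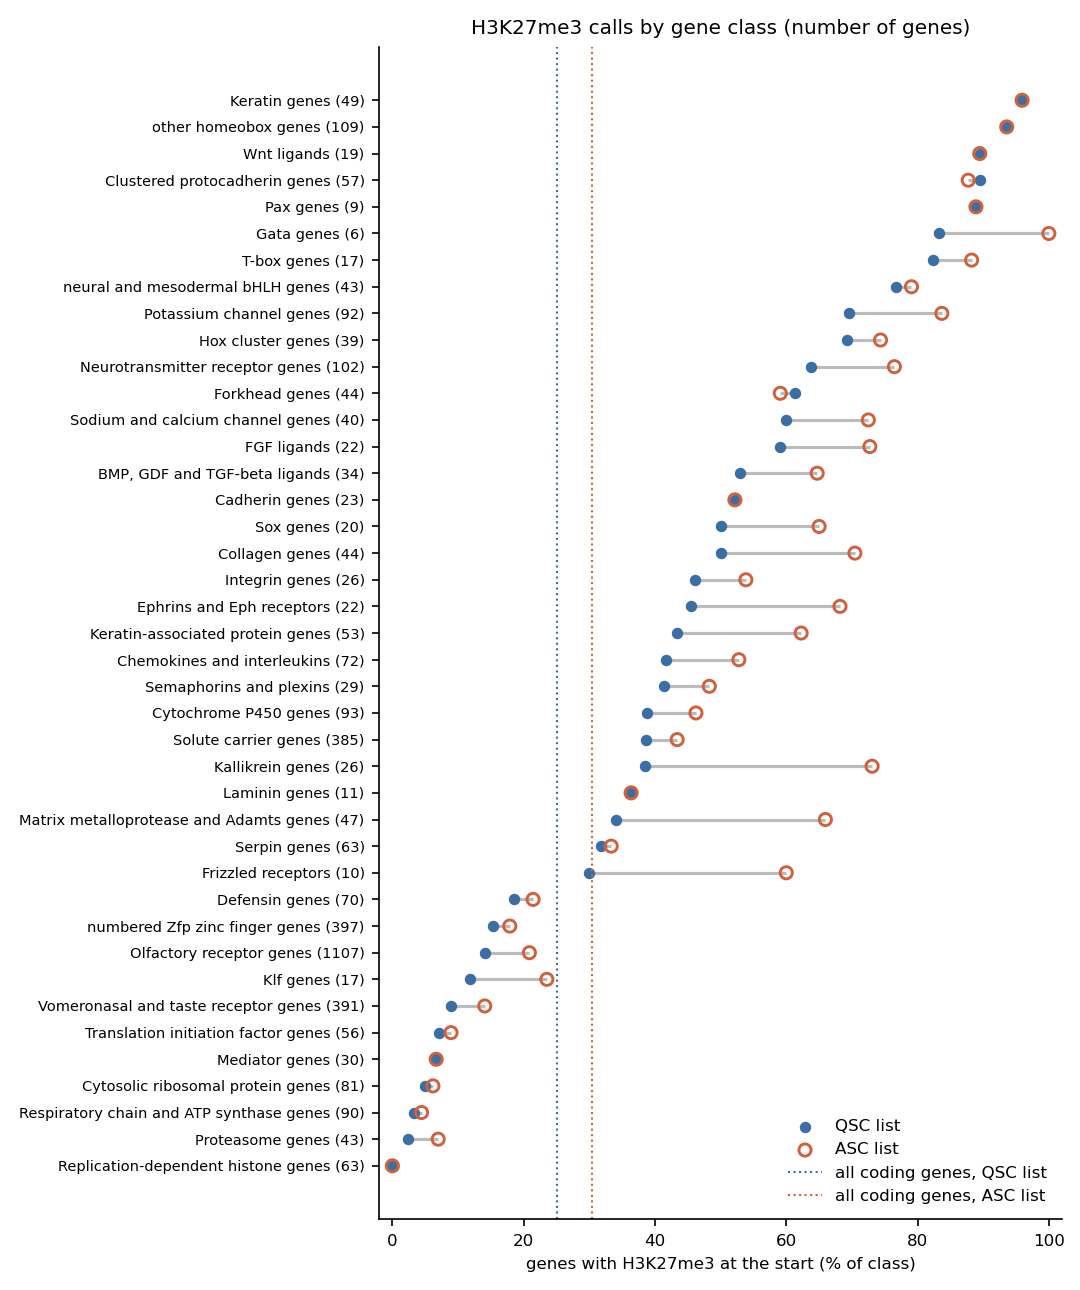
Share of each of 41 gene classes with H3K27me3 at the start (percent of the class, horizontal axis) in the QSC list (filled blue) and the ASC list (open red), with the number of genes in brackets. The dotted lines mark all coding genes, at 25.1% in QSC and 30.4% in ASC. Keratin and homeobox genes lie near the right edge in both lists, and the widest gaps between circles are at kallikrein, matrix metalloprotease with Adamts, and frizzled genes. Genes of a class can share peaks.

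Between these ends, signalling, matrix and channel genes were called more often in the ASC list. In 31 of the 41 classes more genes were called in ASC only than in QSC only, in 8 the numbers were equal, and in 2 there were fewer, forkhead and clustered protocadherin genes, where narrow lists gave the opposite direction. When the ASC list was cut to equal covered bases the numbers were 27, 7 and 7. Neighbouring members can lie under the same peak and are not independent.

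Genes of the extracellular matrix and its remodelling stood high in the ASC-only calls. Collagen genes were called at 22 of 44 in QSC and 31 in ASC, with 10 in ASC only (22.7% of the class, against 7.93% of all coding genes) and Col8a1 in QSC only. The counts of 10 and 1 were the same with narrow lists and with equal covered bases. The members behind the narrow count were not all the same: Col5a1 and Col1a2, in ASC only by broad peaks, had no narrow peak at the start in either state. Besides Col15a1, they included the basement membrane pair Col4a1 and Col4a2, whose shared start region was covered over 10000 bp within 5 kb in ASC and 0 bp in QSC. At Col5a1 ASC peaks covered 9126 bp and QSC peaks 0 bp, at Col6a2 6939 bp and 0 bp, and at Col1a1, a chain of the main fibrillar collagen, 8546 bp and 591 bp. Matrix metalloprotease and Adamts genes, whose products cut matrix proteins, were called at 16 of 47 in QSC and 31 in ASC, with 15 in ASC only (31.9%) and 0 in QSC only. The ASC-only number was 12 with equal covered bases and 5 with narrow lists. Adamts8 had 760 bp covered within 5 kb in QSC and 9577 bp in ASC, Mmp3 957 and 7051 bp, and Adamts15 0 and 4689 bp. Laminin genes were called at 4 of 11 in each state. Among markers of other cells of muscle, H3K4me3 lay at 7 of 18 fibro-adipogenic and fibroblast markers in QSC and 11 in ASC. H3K27me3 was called at 5 and 8 of these 18. The 3 markers in ASC only were Thy1, Col1a1 and Col1a2, and the last pair also counts among the collagen genes above. The marker list and the collagen class are thus not separate. Among 4 defining fibro-adipogenic markers H3K4me3 was at 0 in QSC and at Col1a1 and Cd248 in ASC, with none at Pdgfra and Ly6a. The part of other cell types in these calls was not tested.

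Ligands and receptors followed. Genes of BMP, GDF and transforming growth factor beta ligands were called at 18 of 34 in QSC and 22 in ASC. Inhbb, Bmp6, Gdf1 and Bmp4 were in ASC only (11.8%, beside 7.93% of all coding genes). The median share of the record covered in this class was 14.9% in QSC and 54.1% in ASC. Fibroblast growth factor genes were called at 13 and 16 of 22, with Fgf2, Fgf9 and Fgf21 in ASC only (13.6%), although at Fgf9 7596 bp within 5 kb were already covered in QSC. Ephrins and Eph receptors, which guide cell contact, had 10 and 15 of 22 with 5 in ASC only (22.7%). With narrow lists they had 7 and 9, with 2 in ASC only (9.09%, beside 6.95% of all coding genes). Frizzled receptors for Wnt ligands had 3 and 6 of 10, with Fzd9, Fzd8 and Fzd3 in ASC only. At Fzd9 556 bp were covered within 5 kb in QSC and 5480 bp in ASC.

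Potassium channel genes were called at 64 of 92 in QSC and 77 in ASC, with 14 in ASC only (15.2%) and Kcnq5 in QSC only. Over all coding genes 7.93% were called in ASC only and 2.60% in QSC only. The same 14 and 1 were counted with equal covered bases, where 6.72% of all coding genes were in ASC only. Kcnma1, the large-conductance calcium-activated channel, had 0 bp covered within 5 kb in QSC and 7350 bp in ASC, and Kcnh2 4842 and 10000 bp. Neurotransmitter receptor genes were called at 65 of 102 in QSC and 78 in ASC, with 13 in ASC only (12.7%) and 0 in QSC only. Among them Adrb1, an adrenergic receptor, had 844 and 9474 bp covered within 5 kb and Htr1a, a serotonin receptor, 0 and 5599 bp.

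Tandem gene families differed among themselves. Kallikrein genes, a cluster of serine proteases, had 10 of 26 called in QSC and 19 in ASC, with 34.6% in ASC only and 0 in QSC only. Keratin-associated protein genes had 23 and 33 of 53, with 22.6% in ASC only and 3.77% in QSC only. Over all coding genes these shares were 7.93% and 2.60%. With narrow lists only 1 and 4 kallikrein genes and 2 and 8 keratin-associated protein genes were called. Olfactory receptor genes, the largest family of the genome, had 156 of 1107 called in QSC and 231 in ASC, with 92 in ASC only (8.31%) and 17 in QSC only (1.54%), which is close to the background of 7.93% and 2.60%. Serpin genes were called at 20 and 21 of 63 with 9 in ASC only and 8 in QSC only, and 7 and 9 with equal covered bases. Vomeronasal and taste receptor genes had 34 in ASC only and 14 in QSC only of 391, which became 19 and 18 with equal covered bases and 0 and 2 with a q of at most 0.05.

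Genes of the muscle lineage made up a small part of these calls. Pax7, which specifies muscle stem cells, and the commitment factor Myf5 had no base covered within 5 kb in either state, nor had Myog, which drives differentiation. At Myod1 2778 bp within 5 kb were covered in QSC and 0 bp in ASC, outside the window. Pax3, the paralogue of Pax7, was covered over the whole window in both states with folds of 3.16 in QSC and 2.47 in ASC. All 7 muscle stem cell markers (Pax7, Myf5, Calcr, Vcam1, Itga7, Cdh15 and Sdc4) had H3K4me3 at the start in both states, and the markers of differentiated muscle (Myog, Acta1, Myh1 and Ckm) had none in either. Of 28 myogenic regulators 6 were called in QSC and 12 in ASC. Those in ASC only were Igf1, Dach1, Boc, Mymx, Six2 and Lbx1 (6 genes, 21.4%, beside 7.93% of all coding genes). The ASC-only count was 4 with equal covered bases (14.3%, beside 6.72% of all coding genes). The fusion protein gene Mymx had 0 bp covered within 5 kb in QSC and 1898 bp in ASC, by a single peak with a fold of 1.58. This is below 1.63, the lowest fold of ASC peaks kept with equal covered bases, so the call ends there, and no narrow peak lay at its start. Of 36 genes of satellite cell identity and quiescence 4 were called in QSC and 7 in ASC, with Col5a1, Chrdl2, Bmp6, Calcr and Bmp4 in ASC only and Sdc3 and Six4 in QSC only. These are 13.9% and 5.56% of the list, beside 7.93% and 2.60% of all coding genes. With equal covered bases 4 were in ASC only and 3 in QSC only. Calcr, the calcitonin receptor, had 0 and 2323 bp covered within 5 kb, at a fold of 1.59, so its call also ends with equal covered bases, and it had no narrow peak at the start. Sarcomere and differentiated muscle genes were called at 12 and 16 of 40, with Myh2, Mb, Tnnc2, Myl2 and Myh4 in ASC only (12.5%) and Myoz1 in QSC only (2.5%). The skeletal actin gene Acta1 and the creatine kinase gene Ckm were called in both.

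A pair of lists had more genes called in QSC, each by 2 genes. Cell cycle and DNA replication genes were called at 4 of 45 in QSC and 2 in ASC, and the QSC-only share was 4.44% beside 2.60% of all coding genes. Cdk6, a kinase that acts with D-type cyclins at entry into the cycle, had 10000 bp covered within 5 kb in QSC at a fold of 2.76 and 2821 bp in ASC, none of it in the window, and a QSC narrow peak at its start. Rrm2, a subunit of ribonucleotide reductase, had 1967 and 0 bp. Of its window 545 bp were covered in QSC, near the threshold of 500 bp, at a fold of 1.88. Immediate early and stress response genes were called at 4 and 2 of 32 (3 and 3 with narrow lists), with 6.25% in QSC only. The QSC-only genes were Fosl1 (6938 and 0 bp within 5 kb) and Dusp2 (7683 and 2327 bp). Other members lay just below the threshold of 500 bp in ASC. In the window Nr4a1 had 207 bp in QSC and 497 bp in ASC, Nr4a2 164 and 424 bp, and Atf3 0 and 409 bp. The direction of this count therefore depends on the threshold. Among 7 cyclin-dependent kinase inhibitors, the INK4a/ARF gene Cdkn2a and the imprinted Cdkn1c were called in both states. Cdkn1a, which encodes p21, was called in ASC only with 0 and 3162 bp covered within 5 kb at a fold of 1.90. Of 28 Polycomb and Trithorax genes 4 were called in each state, Cbx7 in ASC only (0 and 3632 bp within 5 kb) and Cbx8 in QSC only. With narrow lists 2 and 6 were called.

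Markers of other cell types that a muscle preparation can hold differed in how many were called in both states. The numbers were 13 of 17 for endothelial, 15 of 20 for immune and 8 of 13 for Schwann and glial markers. They were 5 of 18 (27.8%) for fibro-adipogenic and fibroblast, and 3 of 13 (23.1%) for pericyte and smooth muscle markers. Over all coding genes 22.5% were called in both, so these last shares lay near that of all genes. The single-state shares of all coding genes were 7.93% in ASC only and 2.60% in QSC only. Endothelial markers were called at 14 of 17 in each state and immune markers at 15 and 17 of 20. Schwann and glial markers were called at 8 and 9 of 13, with Ngfr in ASC only, and at 3 and 7 with narrow lists. Pericyte and smooth muscle markers were called at 4 and 7 of 13, with Mcam, Cspg4, Myh11 and Pdgfrb in ASC only and Higd1b in QSC only, and H3K4me3 lay at 9 and 7 of the 13. Among their 4 defining markers H3K4me3 was listed at Cspg4 and Myh11 in QSC, at Cspg4 in ASC, and at Rgs5 and Pdgfrb in neither. In bulk chromatin, a smaller share of marked cells and less mark per cell cannot be told apart.

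Coverage of whole gene records showed differences that the start alone did not. On average 17.95% of a coding gene's record was covered in QSC and 20.58% in ASC. Records covered over at least 80% numbered 2000 in QSC and 2662 in ASC, 1702 of them the same genes. The share covered was at least 20 points higher in ASC at 1767 genes (8.07%) and in QSC at 737 (3.37%). A switch from under 20% in QSC to over 80% in ASC was seen at 221 genes with a median record of 1245 bp. Olfactory receptors were 51 of these 221 genes, and are 1107 of the 21887 coding genes. Only 3 of the 221 records were longer than 50 kb, those of Col15a1, Crispld2 and Ppp2r2b. The reverse was seen at 39 genes, with Hmga2 and Parvb above 50 kb.

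Hmga2 had the largest domain of the QSC list. This gene encodes an architectural chromatin protein of embryonic and proliferating cells. When broad peaks were joined across gaps of 3 kb or less, they formed a QSC domain of 540750 bp on chromosome 10 (120235235 to 120775984), of which peaks covered 94.7%. In ASC 55.8% of this stretch was covered, split over 14 domains with the longest at 122735 bp. The Hmga2 record of 115202 bp was covered over 97.3% in QSC and 10.2% in ASC. Its start was called in both states, with 10000 and 9054 bp covered within 5 kb and folds of 3.24 and 2.73, so the states differed over the gene body and flanks and not in the call at the start.

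Of the 2429 gene records of at least 100 kb, 882 had a larger share covered in ASC and 931 in QSC. Differences of at least 20 points went the other way, with 153 records higher in ASC and 72 in QSC. The mean share was 15.9% in QSC and 17.2% in ASC. Among the 20 named by the size of the difference, more was covered in ASC at Hdac9, a class IIa histone deacetylase, with 6.19% of the record in QSC and 53.8% in ASC. At Nrg1, the neuregulin ligand of ErbB receptors, the values were 10.02% and 46.36%. At the presynaptic adhesion gene Nrxn3 they were 1.65% and 23.1%, although its start was not called in either state. Ppp2r2b, a regulatory subunit of protein phosphatase 2A, had 12.4% and 81.0%, and Rims2, a scaffold of vesicle release, 37.8% and 90.2%. Dpp6, Asic2, Erc2, Prkg1 and Inpp4b completed the 10. More was covered in QSC at Maml3, a coactivator of Notch, with 64.3% in QSC and 8.56% in ASC and no call at its start in either. Sox5, a regulator of cartilage formation, had 23.9% and 1.96%, and Runx2, the bone regulator, had 55.6% and 7.08%. Btbd11 had 55.9% and 5.22%, and Tshz2, a zinc finger gene, 46.7% and 14.5%. Wwox, Lrmda, Hs6st3, Dab1 and Alk completed this set. With equal covered bases all 20 kept their direction, for example Hdac9 at 6.19% and 40.5% and Maml3 at 64.3% and 7.98%.

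**Figure D4:**
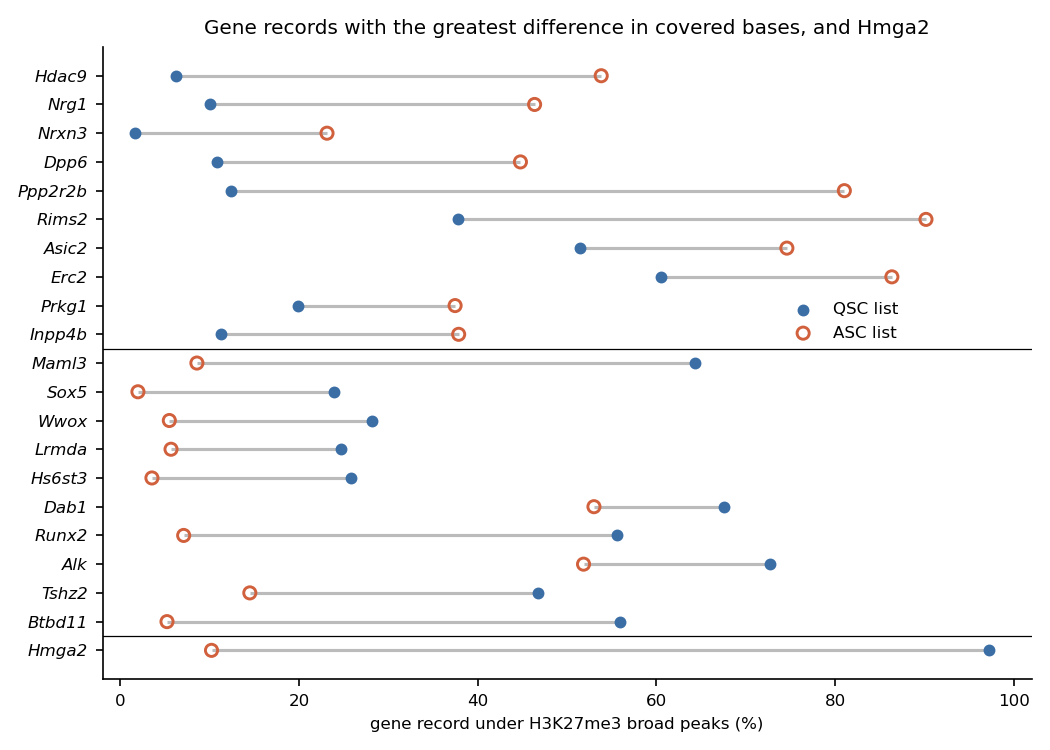
Share of the gene record under H3K27me3 broad peaks (percent, horizontal axis) in QSC (filled blue) and ASC (open red) for the 10 genes with the most bases covered in ASC above QSC (top), the 10 in the opposite direction (middle) and Hmga2 (bottom). Ppp2r2b spans 12.4% to 81.0% and Hmga2 97.3% to 10.2%. These genes were chosen for their difference.

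Zinc finger genes with numbered Zfp symbols ran against the general direction over their records. Many of these genes encode KRAB repressors of transposable elements and lie in clusters. Their starts were called at 61 of 397 in QSC and 71 in ASC, with 23 in ASC only (5.79%) and 13 in QSC only (3.27%). The mean share of the record covered was 15.4% in QSC and 8.90% in ASC. It was at least 20 points lower in ASC at 63 of the 397 genes and at least 20 points higher at 8. Over all coding genes it was that much lower in ASC at 3.37% and that much higher at 8.07%. On chromosome 13, with 37 of these genes, the mean was 28.1% in QSC and 9.75% in ASC, and on chromosome 17, with 46, it was 18.2% and 6.92%. Zfp239 had 82.3% of its record covered in QSC and 0% in ASC, Zfp709 72.8% and 0%, Zfp493 72.7% and 0%, and Zfp759 87.5% and 26.4%. The difference in means was -6.49 points (ASC minus QSC) with the lists as deposited and -7.53 with equal covered bases, while over all coding genes it was 2.63 and 1.28.

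Other long domains were mostly common to the states. The ASC list held 2080 domains of at least 50 kb and the QSC list 1810, of 53083 and 64880 domains with medians of 4177 and 2769 bp. With peaks joined across gaps of at most 10 kb the order turned, at 3869 in ASC and 3887 in QSC. The longest of ASC was 685575 bp over the Hoxb cluster with Calcoco2, Ttll6 and Skap1. In QSC 98.5% of the same stretch was covered, in 2 domains. Domains over Cbln1 and Zfp423 were 522696 bp long in QSC and 473890 in ASC, and those over Sulf2 458944 and 442180 bp. The stretch of the QSC domain over Ldlrad3 and Trim44 was covered over 96.2% in QSC and 72.3% in ASC. The stretch of the ASC domain over Otx2, a head and forebrain regulator, was covered over 96.5% in ASC and 74.2% in QSC, in 9 QSC domains. For the domain over Camk2n1 and a cluster of secreted phospholipase genes the values were 90.7% in ASC and 69.5% in QSC. Other long domains lay at Cadm1, Peli2, Dact2 with Smoc2, Ntm, Foxb1 and Sox1.

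H3K27me3 was called more often at CG-richer promoters among genes without H3K4me3, and less often at every CG content among genes with it. The 17492 genes with a promoter sequence were cut into 4 equal groups by the number of CG dinucleotides in 300 bases. Among genes without an H3K4me3 peak, the share called for H3K27me3 was 24.4%, 47.3%, 61.9% and 63.4% from the lowest to the highest group in QSC, and 30.3%, 52.0%, 67.6% and 65.8% in ASC. Among genes with H3K4me3 it stayed between 7.63% and 11.7% in QSC and between 14.6% and 20.6% in ASC. The ASC share was the higher in all 8 pairs. By promoter, ASC-only genes had a median of 8 CG, QSC-only genes 5, genes called in both 8 and genes called in neither 16. The 350 ASC-only genes with a narrow H3K27me3 peak in either state had a median of 22 CG, and 75.7% of them had H3K4me3 in QSC.

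**Figure D5:**
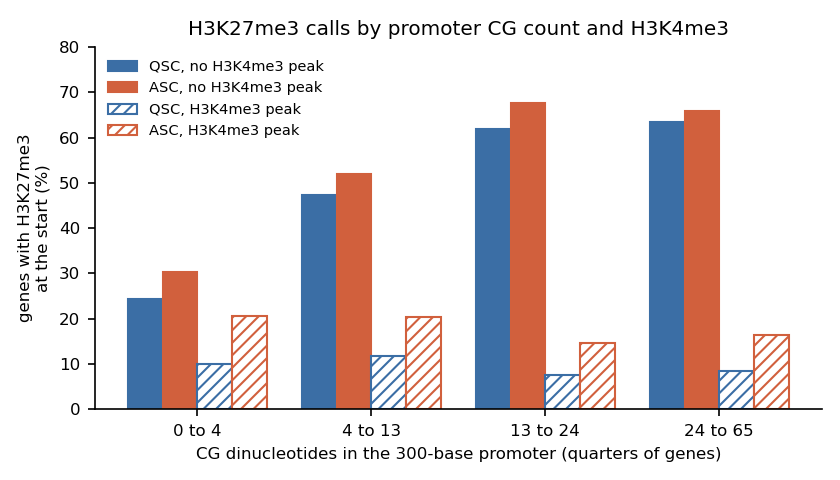
Share of genes with H3K27me3 at the start (percent, vertical axis) in 4 equal groups of genes by CG dinucleotides in the 300-base promoter (horizontal axis), for QSC (blue) and ASC (red), without (solid bars) and with (hatched bars) an H3K4me3 narrow peak at the same start in the same state. Solid bars climb from 24.4% to 63.4% in QSC and from 30.3% to 65.8% in ASC, with the highest ASC bar, 67.6%, in the group before the last. Hatched bars stay at or below 20.6%.

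H3K4me3 was found less often at H3K27me3 starts than at others. It was listed at 22.2% of the 4920 shared genes in QSC and 29.5% in ASC, and at 64.1% and 65.5% of genes called in neither. At ASC-only genes H3K4me3 was present at 766 in QSC and 779 in ASC, 733 of them with the peak in both states. At QSC-only genes it was present at 139 and 163.

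The excess of the ASC list was spread over the genome. On each of the 19 autosomes ASC peaks covered more bases than QSC peaks, from 1.03 times on the lowest to 1.31 times on the highest, with a median of 1.13, and ASC-only genes outnumbered QSC-only genes on all 19. Gene records held 35.6% of the QSC and 34.2% of the ASC broad bases, and 24.1% and 26.7% lay more than 50 kb from any coding gene. On the X chromosome the QSC list called 5.18% of coding genes and the ASC list 10.04%. Outside coding genes, long non-coding RNA genes were called at 36.8% in QSC and 39.1% in ASC, and microRNA genes at 21.09% and 21.99%.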

How the data were processed

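H3K27me3 peaks of mouse muscle stem cells in 2 states were analysed from the narrow and broad peak lists that the authors deposited, 4 lists in all, each named for both replicates of its group. Per peak, the values used were the fold over background, a ratio as the authors deposited it, and the deposited −log10 of the q-value. The submitters' processing notes name mm10 and the tools MACS2 2.1.1, bedtools 2.26.0, Bowtie2 2.3.2, SAMtools 1.3, Picard 2.9.2, Trimmomatic 0.36 and bcl2fastq 2.19, without settings. Numbers in the peak names run past the peaks listed, so the deposited broad lists hold 71.3% (QSC) and 49.9% (ASC) of the highest number. Peak calling joins reads and sets peak ends by depth and background, so lengths and covered bases depend on depth, which is unknown, and no interval is given. The signal tracks and the broad H3K4me3 lists were not used here.

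Gene records and promoters came from RefSeq tables of GRCm38.p6. Strand was known for 17492 of 21887 coding genes (autosomes and sex chromosomes). The other genes took the better covered end, chosen for each list separately, so their values can come from different ends in QSC and ASC. A start inside a longer record is missed, and for 90.1% of genes with strand the start of the promoter table lay within 1 kb of the record end. H3K4me3 was read as a narrow peak in the window, at either end of the record where the strand is unknown. A domain is a run of broad peaks with gaps of up to 3 kb. Counts and shares were computed with Python 3.11.15, numpy 2.4.6 and pandas 2.3.3, and the interval arithmetic was tested on simulated intervals.

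The comparison, the 41 gene classes and the 13 lists were chosen with earlier results of these data known. Genes named were, for each direction, the 12 single-state genes of highest fold with a narrow peak and no broad base of the other state within 5 kb; the 10 of highest fold per list; genes of the 10 longest domains; class and list members with a single-state call, by difference in covered bases where there were more than 6; and the 10 records differing most in covered bases. Provisional symbols were left out. A gene that the rule names is not reported here. Examples beyond this rule, such as Hmga2 in the record plot, Pax3, Acta1, Ckm and the Zfp genes, were chosen after their values were seen. No test was made because a group has a single list.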

Additional observations from a re-analysis of the deposited data

How the results depend on the processing

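No paired analysis was possible because a single peak list stands for both replicates of each state, and for the same reason no replicate could be left out. ASC-only genes exceeded QSC-only genes by 1167 with the main settings, and they were also in excess under each alternative run. Except with equal covered bases, the ASC list covered more bases than the QSC list in all of these runs. They therefore do not separate the excess from the size of the lists. The excess was 537 for a fold of at least 3, 761 with equal covered bases and 1890 over all annotated genes. ASC-only genes numbered 829 with a -log10 q of at least 5, 651 with a fold of at least 3 and 4046 over all annotated genes. QSC-only genes numbered 217 with narrow lists, 0 with a -log10 q of at least 5 (where the QSC list keeps 71 peaks and the ASC list 874), 114 with a fold of at least 3, 1015 with a window of 2.5 kb either side, 2156 over all annotated genes and 148 with a q of at most 0.05. The ratio of covered bases, ASC over QSC, was 1.13 and became 13.3 with a -log10 q of at least 5. The remaining alternatives, among them other covers, gene starts, merging gaps and overlaps, moved these values by less than 1.5 times. The number of domains of at least 50 kb, higher in ASC, turned with gaps of up to 10 kb to 3887 in QSC and 3869 in ASC.

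Differences between classes reversed as follows (ASC minus QSC). With equal covered bases, calls were -1 for Hox and defensin genes and -2 for serpin genes, and the mean record share was -0.55 points for T-box, -0.011 for forkhead, -0.90 for Gata, -0.46 for laminin, -1.42 for defensin genes and -0.30 for all matrix and adhesion genes. With narrow lists, calls were 2 for forkhead, 12 for clustered protocadherin and -1 for respiratory chain genes. With a q of at most 0.05 they were 4 for forkhead, 14 for clustered protocadherin and -2 for vomeronasal and taste receptor genes. The cause was not tested. The q of at most 0.05, genes with strand only, starts from the promoter table and record shares with equal covered bases were chosen after seeing the data. The median −log10 q of the deposited broad peaks was 0.42 in QSC and 0.38 in ASC, so most of them are weak.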
